A study of Mus musculus with 9 samples.

Results

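Palmitoylated G protein alpha subunits are described here in mouse pancreatic cancer cells with and without a CRISPR/Cas9 knockout of the palmitoyltransferase Zdhhc20. The 10 genes were taken by name and all 10 were found among the 54838 genes of the count table: Gnao1, Gnai1, Gnai2, Gnai3 and Gnaz of the Gi/o class, Gnas of the Gs class, Gnaq and Gna11 of the Gq/11 class, and Gna12 and Gna13 of the G12/13 class. The family was chosen because Gnao1 had no reads in the knockout clone and had reads in both other groups. The members were thus chosen by the counts of Gnao1, and its values are given below as a description without a test. All 10 genes passed the filter on low counts that left 13153 genes, but Gnai1 passed it through the parental libraries only and Gnaz through the knockout libraries only. A gene kept only by the group in which it is high is selected towards a difference. Below, no p-value is therefore given where 1 of the groups compared did not reach the level of the filter in all its libraries.

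RNA was sequenced from the PDA530 Met line, a metastatic pancreatic ductal adenocarcinoma line that came from a male KPC mouse with liver metastasis (strain: mixed 129/SvJae/C57Bl/6 background). There were 3 groups of 3 replicates, all untreated and in normal growth: Zdhhc20 knockout cells made with CRISPR/Cas9 (clone E4), control cells that received the same guide RNAs by nucleofection without being edited (clone C5, which still expresses Zdhhc20), and the parental cells, which are not a clone. Each edited and control group is 1 single-cell clone, so an effect of the knockout and a property of the clone cannot be told apart. The p-values rest on the spread between replicates, estimated over the 3 groups together, and not on a spread between clones. Replicates of the control clone differed most from each other, and their spread enters every p-value. KPC is a genetic mouse model of pancreatic cancer; the labels do not spell out its alleles or Cre driver, and all 3 groups share them.

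Heterotrimeric G proteins pass signals from seven-transmembrane receptors to enzymes inside the cell. The alpha subunit binds GDP at rest and GTP when a receptor activates it. It then acts on effectors: Gs stimulates adenylyl cyclase, Gi subunits inhibit it, Gq and G11 activate phospholipase C beta, and G12 and G13 activate guanine nucleotide exchange factors. Alpha subunits are held at the plasma membrane by palmitate on cysteines near their N terminus, and those of the Gi/o class carry N-terminal myristate as well. Gnao1 encodes the alpha subunit Go, which is known mainly from neurons and endocrine cells.

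The lipid-modified end of the proteins is shown because it is what the 10 members share. Each line is the start of the annotated coding sequence (20 codons, GENCODE M21 on GRCm38, reverse-complemented for genes on the minus strand), read 5′ to 3′, with the cysteine codons TGC and TGT in capitals.
Gnao1: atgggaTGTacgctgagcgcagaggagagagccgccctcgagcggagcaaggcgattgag
Gnai1: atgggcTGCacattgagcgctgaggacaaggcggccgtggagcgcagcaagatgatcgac
Gnai2: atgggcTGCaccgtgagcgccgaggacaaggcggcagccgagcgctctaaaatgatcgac
Gnai3: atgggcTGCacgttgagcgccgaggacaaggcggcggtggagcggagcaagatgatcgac
Gnaz: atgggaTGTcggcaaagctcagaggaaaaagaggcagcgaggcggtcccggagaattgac
Gnas: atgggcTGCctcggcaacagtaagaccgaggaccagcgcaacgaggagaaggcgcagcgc
Gnaq: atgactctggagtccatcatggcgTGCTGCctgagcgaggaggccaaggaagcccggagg
Gna11: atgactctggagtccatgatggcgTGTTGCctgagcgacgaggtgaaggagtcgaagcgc
Gna12: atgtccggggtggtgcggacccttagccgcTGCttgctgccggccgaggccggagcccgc
Gna13: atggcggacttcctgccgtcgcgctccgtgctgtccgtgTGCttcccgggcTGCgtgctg
In the Gi/o genes and Gnas a cysteine codon followed the start and a glycine codon directly. Gnaq and Gna11 had a pair of adjacent cysteine codons further in, Gna12 had 1 and Gna13 had 2 that were not adjacent, and none of these last 4 had glycine after the start. The starts are also alike enough between paralogs to raise the question of shared reads. Over each gene's representative transcript, 0% to 2.4% of 31-base stretches occurred in another annotated gene, except for 12% in Gna12, nearly all in the opposite-strand gene Amz1, and 34.2% in Gnas, mainly in the antisense gene Gm20721. Whether the counting used strand is not given in the sources used here, so reads of Gnas and Gna12 cannot be separated from those of these partners.

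The deposited libraries held 16525869 to 23192701 counts each, and every pair of replicates differed by more than sampling noise. Zdhhc20, the targeted gene, was at 37.5, 33.9 and 42.5 CPM (counts scaled to library size with the TMM method) in the knockout libraries, at 123, 85.8 and 120.2 in the control clone and at 75.3, 81.2 and 90.7 in the parental cells. The knockout difference was a log2 fold change of -1.53 against the control clone (SE 0.15, adjusted by Benjamini-Hochberg, BH-adjusted p = 6.972e-05) and -1.12 (SE 0.15, BH-adjusted p = 0.0005848) against the parental cells. Transcript of Zdhhc20 was thus still present in the knockout clone, and the edit and the protein were not analysed here. Of 8 epithelial markers Krt8, Krt18 and Cdh1 were abundant, while Epcam was near 0 at 0.61, 0.15 and 0.198 CPM on average in knockout, control and parental cells. The summed epithelial markers were lower in the knockout libraries (4401 to 4537 CPM) than in the control (7277 to 9729) and parental libraries (6812 to 8291). Krt8 (1323, 2754 and 2525 CPM on average in knockout, control and parental cells), Krt19 (171.8, 1491 and 1141) and Cdh1 (768.3, 1279 and 1202) carried most of that difference. Krt7 (421.4, 842.2 and 394.7) was not below its parental level, and the low Epcam and Cldn4 (1.48, 0.116 and 0.143) had their highest values in the knockout clone. Of 13 neuronal and neuroendocrine markers 6 were at 0 in all 9 libraries (Rbfox3, Chga, Ins1, Ins2, Gcg and Sst). Their summed level was 37.3 to 47.6 CPM in the knockout, 30.1 to 36.0 in the control and 64.0 to 75.7 in the parental libraries, mostly from Map2 and Tubb3, and the acinar, fibroblast, endothelial and immune marker sums were each at most 7.66 CPM. The part of these markers in the results below was not tested, and in bulk RNA fewer cells of a type and less RNA per cell cannot be told apart.

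Gnao1 (ENSMUSG00000031748, chr8:93809966-93969388, plus strand, GRCm38) had 0 counts in each of the 3 knockout libraries. It had 238, 197 and 473 counts in the control libraries, or 10.4, 11.7 and 24.8 CPM, and 306, 263 and 196 counts in the parental libraries, or 14.7, 15.5 and 11.5 CPM. The knockout libraries were therefore all below the other 6, and control replicate 3 was the highest. Over 55372616 knockout counts, 0 counts allow a level of up to 0.054 CPM (3 counts, counting error only). Pooled over libraries, Gnao1 was at least 286-fold lower in knockout than in control cells and at least 259-fold lower than in parental cells. Without knockout replicate 1, 2 or 3, and so with fewer counts behind the 0, the bound against the parental cells was 163.5-fold, 175.2-fold or 179.2-fold.

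In Gnao1 the control libraries overlapped the parental ones. The log2 fold change of the control clone against the parental cells was 0.17 (SE 0.33, 95% interval -0.60 to 0.93), on means of 15.6 ± 7.98 and 13.9 ± 2.11 CPM (SD, n = 3). Without control replicate 3 it was -0.34, so its sign rests on that library. No p-value is given, because Gnao1 was chosen for having reads in both of these groups.

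**Figure D1:**
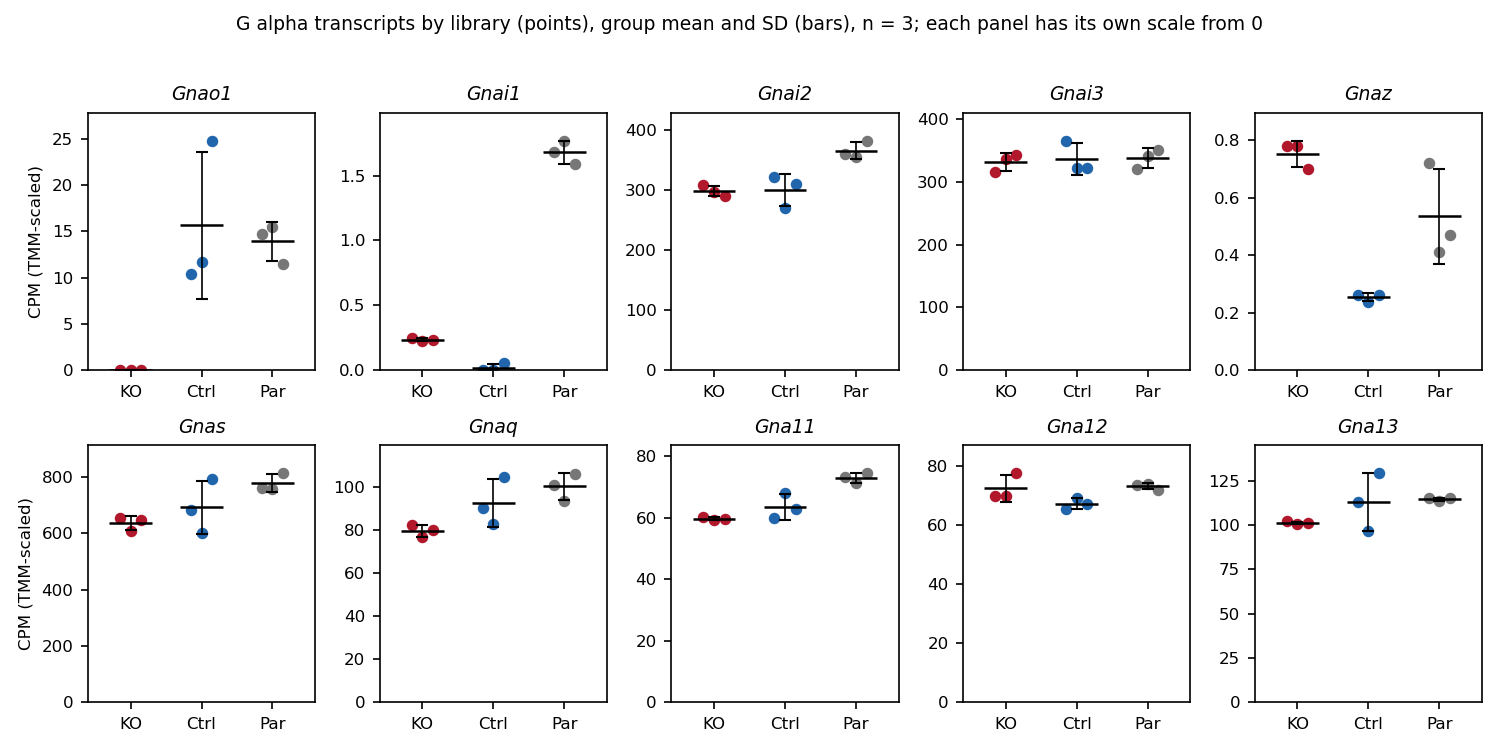
Levels of the 10 G alpha genes in each library (points; y axis in TMM-scaled CPM, each panel with its own scale from 0) for the knockout clone (KO), the control clone (Ctrl) and the parental cells (Par); long bars are means and error bars the SD of 3 libraries. Gnao1 lies at 0 in the 3 KO libraries, Gnai1 is highest in the parental cells, and Gnai3 and Gna12 differ little between groups.

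Of the other subunits of the Gi/o class, Gnai1 (chr5:18265135-18360355, minus strand), an inhibitor of adenylyl cyclase, was highest in the parental cells: it was at 1.69, 1.77 and 1.59 CPM in the parental libraries (92 counts in all), at 0.244, 0.223 and 0.234 in the knockout libraries (13 counts) and at 0, 0 and 0.0525 in the control libraries (1 count). No 2 groups overlapped. The parental level was 98.8 times that of the control clone (95% counting interval 17.3 to 3945), and the knockout level was 13.8 times that of the control clone (2.07 to 584). These intervals cover counting error only and leave out the spread between libraries. Gnai1 was kept by its parental libraries only, so neither they nor the SE below are a test. The control level rests on the 1 count in control replicate 3: the fitted log2 fold change of the knockout against the control clone, 3.34, was 5.17 without that library, when the control clone is at 0 and the value is no bound, and 2.80 without control replicate 1. Against the parental cells the knockout clone had a log2 fold change of -2.81 (SE 0.39). Counts were highest in the parental cells, lower in the knockout clone and lowest in the control clone.

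Gnai2 (chr9:107614125-107635367, minus strand) and Gnai3 (chr3:108107280-108146146, minus strand) are the widely expressed Gi subunits. Gnai2 was at 307.7, 297.2 and 289.8 CPM across the knockout libraries, 321.2, 270.4 and 309.2 in the control libraries and 360.4, 354.0 and 382.1 in the parental libraries. The clones overlapped, and both lay below the parental cells. The log2 fold change was -0.29 (SE 0.08, BH-adjusted p = 0.02058) for the knockout clone and -0.28 (SE 0.08, BH-adjusted p = 0.03251) for the control clone against parental cells. Between the clones it was -0.01 (95% interval -0.19 to 0.17, BH-adjusted p = 0.9337). Both calls were lost when any 1 knockout or parental library was left out, with adjusted p from 0.0548 to 0.09702 for the knockout and from 0.05303 to 0.1107 for the control clone. The call of the control clone was also lost without the filter (0.05764) and in a fit of only those groups (0.1029). Gnai2 lies on chromosome 9, where the median over 748 tested genes was -0.526 and -0.534 on the log2 scale in the comparisons of the knockout clone with the control clone and the parental cells, and -0.019 between control clone and parental cells.

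Gnai3 varied little, at 331.9 ± 14.2, 337.2 ± 25.3 and 338.3 ± 15.7 CPM (SD, n = 3) in knockout, control and parental cells. No comparison called it, and the 95% interval for the knockout against the control clone ran from -0.20 to 0.15 on the log2 scale. Gnaz (chr10:74967177-75016907, plus strand), the Gi class member that pertussis toxin does not modify, was low throughout: 0.781, 0.779 and 0.701 CPM across the knockout libraries, 0.262, 0.238 and 0.262 in the control libraries and 0.723, 0.413 and 0.471 in the parental libraries. The knockout libraries overlapped the parental ones, and the control libraries were below all others. Its log2 fold change was 1.54 (SE 0.36) for the knockout against the control clone and 0.47 (95% interval -0.25 to 1.202) against the parental cells. These values rest on 12 to 16, 4 to 6 and 7 to 15 counts per library. Gnaz was kept by its knockout libraries only, so the SE and interval are no test.

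Gnas (chr2:174284320-174346744, plus strand) encodes the stimulatory subunit. Its knockout libraries were at 653.4, 609.8 and 648.3 CPM, its control libraries at 683.6, 600.5 and 790.9 and its parental libraries at 761.1, 758.3 and 814.5. The knockout libraries lay below the parental ones and overlapped the control ones. Gnas was called lower against the parental cells at the margin (log2 fold change -0.29, SE 0.10, BH-adjusted p = 0.04989). That call was lost with DESeq2 size factors (0.05284), without the filter (0.06043), with a filter at a mean of 5 CPM (0.05614), and without any 1 knockout library, any 1 parental library or control replicate 1 (0.0671 to 0.1692). The control clone was called lower than the parental cells without control replicate 3 (-0.28, BH-adjusted p = 0.02173) and not with it (0.248).

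Among the Gq/11 subunits, Gnaq (chr19:16132831-16387463, plus strand) was at 82.3, 76.7 and 79.9 CPM in the knockout, 90.3, 82.9 and 104.8 in the control and 100.9, 93.7 and 106.3 in the parental libraries. The knockout libraries were the lowest 3 of 9, by a small gap. Gnaq was lower than in the parental cells (log2 fold change -0.33, SE 0.10, BH-adjusted p = 0.02642). Dropping knockout replicate 1, 2 or 3 or parental replicate 1 or 3 ended this call (0.06883 to 0.1098). Against the control clone it was not called (-0.22, SE 0.10, BH-adjusted p = 0.09233), and without control replicate 2 it was (-0.29, BH-adjusted p = 0.01886). Gna11 (chr10:81528724-81545190, minus strand) was at 60.2, 59.3 and 59.5 CPM in the knockout, 59.8, 68.0 and 62.7 in the control and 73.2, 71.3 and 74.6 in the parental libraries. It fell below the parental level in the knockout clone (-0.29, SE 0.07, BH-adjusted p = 0.01282; 0.05183 without knockout replicate 3 and 0.0644 without the filter). The control libraries of Gna11 also lay below the parental ones, by -0.20 on the log2 scale (SE 0.07), and whether this was called depended on the setting. The adjusted p was 0.0715 in edgeR, 0.02118 in DESeq2, 0.02896 in edgeR with total counts as scaling, 0.04858 with a filter at a mean of 5 CPM and 0.01761 without control replicate 2.

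The G12/13 subunits, which act on the actin cytoskeleton, were not called in any comparison with all 9 libraries in the fit; edgeR gave neither an unadjusted p under 0.05, and DESeq2 and limma voom called 0 of the 2. Gna12 (chr5:140758408-140830431, minus strand) averaged 72.4 ± 4.53, 67.2 ± 1.96 and 73.2 ± 1.13 CPM (SD, n = 3) in knockout, control and parental cells, and Gna13 (chr11:109362831-109401369, plus strand) averaged 101.2 ± 0.668, 112.9 ± 16.5 and 114.3 ± 1.004. The interval for the knockout against the control clone was -0.05 to 0.27 for Gna12 and -0.38 to 0.06 for Gna13. Gna13 was called lower against the control clone without control replicate 2 (-0.26, BH-adjusted p = 0.01461), and against the parental cells when only those groups were fitted (-0.17, BH-adjusted p = 0.01039). In Gnas, Gnaq and Gna13 alike, control replicate 2 was the lowest and control replicate 3 the highest of the control libraries.

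**Figure D2:**
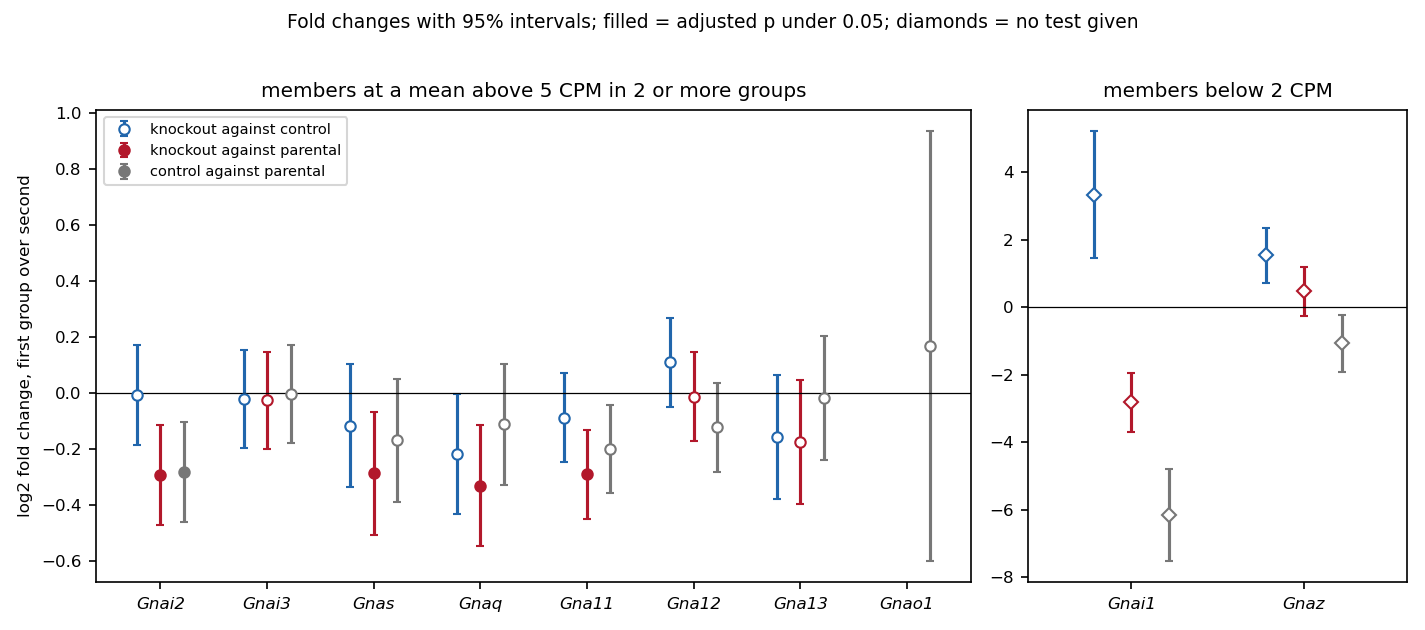
Log2 fold changes (y axis) with 95% intervals for each member in the 3 comparisons; filled points have an adjusted p under 0.05, and diamonds are values without a test because a group did not reach the filter. The left panel holds the members above 5 CPM in 2 or more groups and the right panel Gnai1 and Gnaz on a wider axis; the knockout comparisons of Gnao1 are not drawn because its knockout counts are 0, and most filled points on the left are red, near -0.29.

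Counts over members are given for the 7 that reached the filter in every group, so without Gnao1, Gnai1 and Gnaz. In the knockout against the control clone 0 of the 7 were called higher and 0 lower in edgeR, where 18.7% of all tested genes were called higher and 24.2% lower. An unadjusted p under 0.05 was found for 1 of the 7, Gnaq, and DESeq2 and limma voom called 0. Against the parental cells 0 were called higher and 4 lower (Gnai2, Gnas, Gnaq and Gna11), beside 13.1% and 18.3% of all genes. Without 1 library that count of 4 ran from 0 to 4, and it was 0 without knockout replicate 3. With the control clone set against parental cells, 0 were called higher and 1, Gnai2, lower (0 to 2 without 1 library), beside 10.4% and 11% of all genes. Groups did not overlap for 2, 5 and 3 of the 7, where 51.6%, 61.5% and 37.3% of all tested genes were without overlap. The median log2 fold change of the 7 was -0.0895, -0.288 and -0.123, and that of all tested genes was -0.0228, -0.00638 and 0.012. The last 2 comparisons share the parental libraries, so their values are only set side by side. Called the same way against both other groups, 0 of the 7 were apart in the knockout clone (8.19% of all tested genes were higher and 13.4% lower in this way) and 0 in the control clone (7.01% and 6.41%). In the parental cells 1, Gnai2, was higher and 0 lower (3.7% and 2.14%).

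Summed over the 10 genes, G alpha transcripts came to 1581 ± 25.7 CPM in the knockout clone, 1681 ± 146.8 in the control clone and 1859 ± 61.6 in the parental cells (SD, n = 3). The knockout and control libraries overlapped (1552 to 1600 against 1522 to 1811), and both lay below the parental libraries (1823 to 1930). Gnas, Gnai2 and Gnai3 made up most of this sum, and Gnao1 gave at most 24.8 CPM of it.

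Levels between genes were compared as CPM per kilobase of merged exons, with the median and range over the 9 libraries. Gnai3 came first (103.4, range 96.8 to 112.3), followed by Gnai2 (81.8, 71.5 to 101.1) and Gnas (61.1, 53.7 to 72.8), and each overlapped the next. A gap followed. Gna12 (20.4), Gna13 (17.6), Gna11 (15.3) and Gnaq (14.6) formed a group in which neighbours in the order overlapped. After a further gap came Gnao1 (1.04, range 0 to 2.25), Gnaz (0.130) and Gnai1 (0.0745), and neighbours in the order overlapped again. The order of these last 3 turned by group: Gnao1 was the lowest in the knockout clone, at 0, and parental Gnai1 (up to 0.564) lay above every value of Gnaz (at most 0.216). The order of the leading genes depends on the length used: per kilobase of the longest annotated transcript Gnas was first (173.2), then Gnai2 (139.6) and Gnai3 (103.4), and 6 of the 10 genes kept their rank.

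Few genes were silent in the way of Gnao1. With 0 counts in all 3 knockout libraries and a mean of at least 5 CPM in both other groups, 9 genes were found, Gnao1 included, or 0.0684% of the tested genes. The same rule with the control clone or the parental cells as the silent group found 0 genes each. The 5 nearest to Gnao1, by the distance between log2(CPM + 0.5) values over the control and parental libraries, were Stk39 (distance 1.33), a kinase of the ion transport pathway; Panx1 (1.66), a membrane channel for ATP; Tmem150c (1.69); Cdca7l (1.80); and Sult1c2 (2.06), a sulfotransferase. Stk39 averaged 10.2 ± 2.42 CPM in the control clone and 12.5 ± 0.268 in the parental cells, and Tmem150c averaged 8.90 ± 4.02 and 9.87 ± 0.448 (SD, n = 3). Panx1 lies on chromosome 9, where the medians of the knockout comparisons were -0.526 and -0.534 on the log2 scale. One of the remaining genes, the pseudogene Rpl10-ps1, was also at 0 in 2 of the 3 parental libraries. This likeness was the selection rule itself and carries no test.

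Tested neighbours above Gnao1 on chromosome 8 were not silent in the knockout clone. Nudt21, Ogfod1 and Bbs2 were not called in either knockout comparison, and Mt2 reached the filter in no whole group. On the lower side the nearest tested genes were the carboxylesterases Ces1b, 729949 bases away, and Ces1a, 761774 bases away. Ces1a had 2 counts in the knockout clone against 90 in the control clone and 107 in the parental cells, a ratio of 42.6 (95% counting interval 11.4 to 356.7) and 54.3 (14.7 to 454.4). Ces1b had 2 counts against 39 and 66, a ratio of 18.4 (4.77 to 157.6) and 33.5 (8.92 to 282.5). Both genes passed the filter through other groups only, so no test is given, and reads shared between the Ces1 genes were not analysed here. Further out, Gm3272 was not called, Fto was called lower against the parental cells (-0.26, BH-adjusted p = 0.02515; lost without the filter, at 0.09741, and in 5 of the fits without 1 library) and Rpgrip1l was called higher against the control clone (0.51, SE 0.10, BH-adjusted p = 0.003032) and the parental cells (0.33, BH-adjusted p = 0.03405; lost in 8 of 17 alternatives). The 739 tested genes of chromosome 8 had median log2 fold changes of -0.0364 and -0.0067 in the knockout comparisons.

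**Figure D3:**
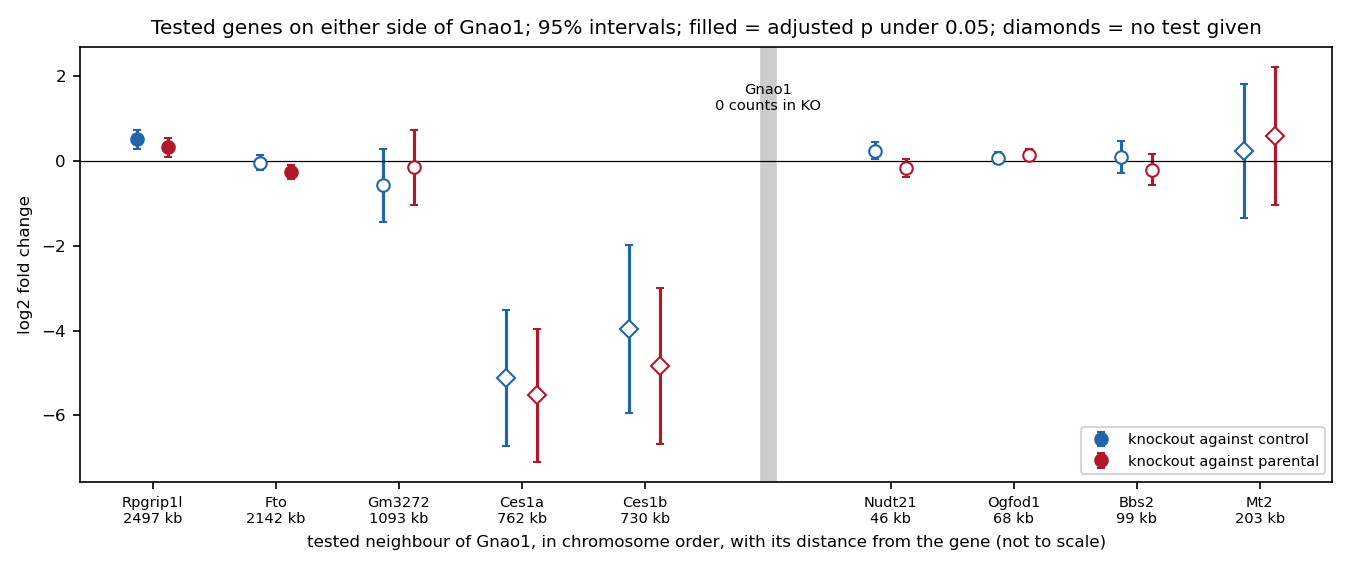
Log2 fold changes (y axis) with 95% intervals for tested genes on either side of Gnao1 (5 below, 4 above), in chromosome order with the distance from Gnao1 under each name (not to scale), with the knockout clone set against the control clone (blue) and the parental cells (red); filled points have an adjusted p under 0.05 and diamonds have no test because a group did not reach the filter. Ces1a and Ces1b lie far below 0, and the 4 genes above Gnao1 lie near 0 with intervals that are wide for Mt2.

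The partners of the alpha subunits were followed in 16 lists of 244 genes, of which 90 passed the filter. The knockout clone had 18 of the 90 called higher and 28 lower against the control clone (51.1% called, beside 42.9% of all tested genes) and 16 higher and 26 lower against the parental cells (46.7%, beside 31.4%). The control clone had 13 higher and 16 lower against the parental cells (32.2%, beside 21.4%). The 90 include genes kept only by the groups in which they were high, such as Gprin1 and Adcy8, and these are selected towards a difference. The shares of the 90 are therefore not read as an excess over all tested genes. In 72 of the 90 every library reached the level of the filter, and the lists are counted over these 72 from here on. Between the clones 20.8% of the 72 were called higher in the knockout and 27.8% lower (15 and 20 genes). Set against parental cells, the knockout clone had 19.4% higher and 26.4% lower (14 and 19 genes), and the control clone 15.3% and 16.7% (11 and 12 genes). Over the 11401 tested genes that reached it everywhere the shares were 20% and 22.8%, 14.1% and 16.3%, and 10.4% each way. Medians over the 72 were 0.026, -0.023 and -0.0725 on the log2 scale. Called the same way against both other groups, 7 were higher and 14 lower in the knockout clone (9.72% and 19.4%, beside 8.79% and 11.9% of the 11401), 6 and 7 in the control clone (6.89% and 6.72% of the 11401) and 3 and 5 in the parental cells (2.74% and 2.25%). Genes outside the naming rule (Adcy8, Gprin1, Gng12, Gpsm1, Arhgef11, Arrb2, F2rl1, Rgs10, Rgs19, Zdhhc7, Abhd17c, Ppt1 and Nmt1) are named after their values were seen.

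Of 10 adenylyl cyclases, the enzymes that Gs and Gi subunits regulate, 3 reached the filter in every group: Adcy9, Adcy7 and Adcy6. All 3 were called lower in the knockout clone against the control clone and against the parental cells, beside 22.8% and 16.3% of the 11401 genes that did so. Of the rest, Adcy8 passed through the other groups only and 6 had at most 10 counts in any group. Adcy9 was at 1.81, 2.23 and 2.04 CPM across the knockout libraries, 12, 8.69 and 14.01 in the control libraries and 9.10, 7.19 and 10.1 in the parental libraries, without overlap. Its log2 fold changes were -2.52 (SE 0.22, BH-adjusted p = 3.887e-05) and -2.12 (SE 0.22, BH-adjusted p = 0.0001645); it lies on chromosome 16, whose 403 tested genes had medians of -0.349 and -0.293 in these comparisons. Adcy7 averaged 1.19 ± 0.286 CPM in the knockout clone against 4.10 ± 0.410 and 7.21 ± 1.54 (SD, n = 3), or -1.78 (SE 0.24, BH-adjusted p = 0.0004235) and -2.60 (SE 0.24, BH-adjusted p = 8.974e-05). Adcy8 had 3, 0 and 0 counts in the knockout libraries, so the control clone held 33.7 times its level (95% counting interval 11.2 to 166.1) and the parental cells 64.7 times (21.8 to 316.3). All 3 counts were in knockout replicate 1, so without that library Adcy8 was at 0 in the knockout clone and these ratios could not be formed. Adcy6, the most abundant cyclase, was at 121.5, 114.8 and 113.9 CPM across the knockout libraries, all below the control (172.1 to 224.8) and parental libraries (145.8 to 152.1). Its log2 fold changes were -0.74 (SE 0.10, BH-adjusted p = 0.0003556) and -0.36 (SE 0.10, BH-adjusted p = 0.02035), and the latter was lost in 5 of the fits without 1 knockout or parental library (lowest adjusted p 0.0504).

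Gprin1, a binding partner of Go-class alpha subunits that is known from growing neurites, also had 0 counts in the 3 knockout libraries. The control libraries held 1.75, 2.26 and 2.10 CPM and the parental libraries 2.70, 2.71 and 2.41, so Gprin1 was at least 37.2-fold and 48.4-fold lower in knockout cells (23.5-fold and 30.6-fold without knockout replicate 1, with fewer counts behind the 0). It passed the filter through those groups only, so no test is given, and it is below the 5 CPM of the rule that found Gnao1 and 8 others. Gpsm1, another regulator of Gi class subunits, exceeded its control clone level in the knockout (8.70 against 4.28 CPM, log2 fold change 1.02, SE 0.13, BH-adjusted p = 0.0003331). The parental cells lay between, at 6.52 CPM: the knockout clone was called higher than these (0.41, BH-adjusted p = 0.0377, lost in 7 of 17 alternatives) and the control clone lower (-0.61, BH-adjusted p = 0.01263; 0.0529 in a fit of only those groups and 0.05665 without parental replicate 1). Over this list of chaperones and exchange factors, 6 of 10 genes reached the filter in every group. Of these, 4 were called higher and 0 lower against the control clone, beside 20% and 22.8% of the 11401 genes. Against the parental cells 1 was called higher and 0 lower, beside 14.1% and 16.3%. Without 1 library 3 to 5 and 0 to 3 were higher.

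**Figure D4:**
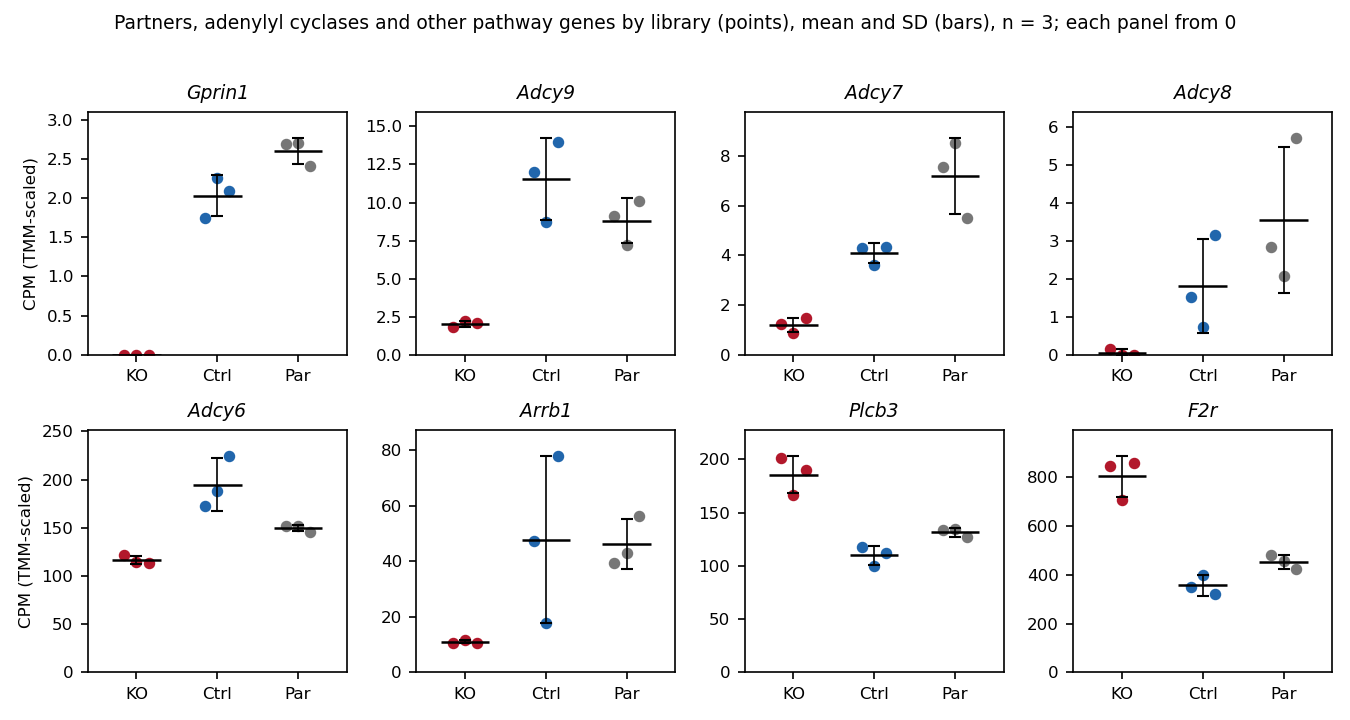
Levels of Gprin1, the 4 tested adenylyl cyclases, Arrb1, Plcb3 and F2r in each library (points; y axis in TMM-scaled CPM from 0) for the knockout clone (KO), control clone (Ctrl) and parental cells (Par); long bars are means and error bars the SD of 3 libraries. The KO points of the first 6 genes lie below all others and those of Plcb3 and F2r above all others; control replicate 2 of Arrb1, at 17.9 CPM, is closest to the KO points.

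Of the beta and gamma subunits that bind alpha at rest, Gnb1, the most abundant beta, was at 408.8, 437.6 and 415.4 CPM on average and was not called in any comparison. Among 4 tested beta genes 1 was called higher and 0 lower in the knockout against the control clone, and 0 in either direction against the parental cells, where edgeR gave 0 an unadjusted p under 0.05 and DESeq2 and limma voom called 0. Among 4 gamma genes that reached the filter in every group 3 were called lower against the control clone and 2 against the parental cells, and 0 higher; without 1 library 2 to 3 and 1 to 3 were lower. Gng5, the most abundant on average, was at 121.7 CPM in the knockout clone, 143.3 in the control clone and 147.8 in the parental cells (log2 fold changes -0.24, SE 0.07, BH-adjusted p = 0.02349, and -0.28, SE 0.07, BH-adjusted p = 0.01534). These calls were lost in 6 and 4 of 17 alternatives. Gng12 was at 88.6 CPM in the knockout clone, 165.6 in the control clone and 131.2 in the parental cells (log2 fold changes -0.90, SE 0.10, BH-adjusted p = 0.0001253, and -0.57, SE 0.10, BH-adjusted p = 0.002348).

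Effectors of the other classes moved in either direction. Plcb3, the 1 tested phospholipase C beta and a target of Gq, was at 201.0, 166.3 and 189.7 CPM across the knockout libraries, above the control (100.1 to 117.5) and parental libraries (126.7 to 134.4). It rose by 0.75 (SE 0.09, BH-adjusted p = 0.0002302) and 0.50 (SE 0.09, BH-adjusted p = 0.003221) on the log2 scale. Arhgef12, an exchange factor that G12 and G13 activate, fell from 238.3 ± 71.4 and 263.9 ± 14.8 to 137.3 ± 4.39 CPM (log2 fold changes -0.80, BH-adjusted p = 0.00583, and -0.94, BH-adjusted p = 0.003647); it lies on chromosome 9, like Gnai2. Of the 4 exchange factors on that list 1 was called higher (Arhgef11, 0.45, BH-adjusted p = 0.01263) and 1 lower against the control clone. Against the parental cells 0 were called higher and 1 lower. Arrb1, an arrestin that uncouples receptors from G proteins, was at 10.7, 11.7 and 10.8 CPM in the knockout, 47.1, 17.9 and 78.0 in the control and 39.2, 43.0 and 56.3 in the parental libraries. Its log2 fold changes were -2.11 (SE 0.43, BH-adjusted p = 0.003534) and -2.06 (SE 0.43, BH-adjusted p = 0.005834). Arrb2 was called higher (0.48, BH-adjusted p = 0.002886, and 0.32, BH-adjusted p = 0.02645, the latter lost in 5 of 17 alternatives). Of 6 receptor kinases and arrestins, 2 were called higher and 2 lower against the control clone, beside 20% and 22.8% of the 11401 genes. Against the parental cells 3 were called higher and 1 lower, beside 14.1% and 16.3%.

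Most receptor genes were too low to test: 25 of 137 on the 4 receptor lists passed the filter. F2r, the thrombin receptor, was the most abundant of the Gq/11 list and was higher in the knockout clone, at 804.7 CPM on average against 356.5 in the control clone and 453.1 in the parental cells (log2 fold changes 1.18, SE 0.11, BH-adjusted p = 5.152e-05, and 0.83, SE 0.11, BH-adjusted p = 0.0005399). The related F2rl1 was higher as well (0.67 and 0.74, BH-adjusted p = 0.0002902 and 0.0002844). Both lie on chromosome 13, where the median over 542 tested genes was 0.329 and 0.121. The nucleotide receptors differed in opposite directions. P2ry12, which couples to Gi, was at 8.55, 8.18 and 9.11 CPM across the knockout libraries, above the control (0.158 to 1.43) and parental libraries (0.824 to 1.93), with log2 fold changes of 3.65 (SE 0.52; 4.58 without control replicate 2, the highest of the control libraries) and 2.57 (SE 0.47, BH-adjusted p = 0.003212). Only 1 of the 3 control libraries reached the filter, so the former has no test. P2ry2, which couples to Gq, was at 0.293, 0.890 and 0.701 CPM across the knockout libraries against 7.81 to 9.52 and 3.83 to 4.77, with log2 fold changes of -3.76 (SE 0.30) and -2.80 (SE 0.31), without a test because only 2 of the 3 knockout libraries reached the filter. The histamine receptor Hrh1 was lower too (-2.62, BH-adjusted p = 0.000259, and -1.45, BH-adjusted p = 0.009843; the latter was 0.05011 without knockout replicate 1).

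Of 5 RGS proteins that reached the filter in every group, which speed up GTP hydrolysis by alpha subunits, 1 was called higher and 1 lower in the knockout against the control clone, and 1 higher (Rgs19) and 2 lower (Rgs10 and Rgs11) against the parental cells. In the latter comparison 0 were higher without knockout replicate 2 or parental replicate 3, and 0 were lower without knockout replicate 1, knockout replicate 2 or parental replicate 3. Rgs11 was at 1.74 CPM in the knockout clone, 14.1 in the control clone and 4.45 in the parental cells, and the knockout was called lower against both (-3.00, BH-adjusted p = 0.000471, and -1.34, BH-adjusted p = 0.03912). The second call was lost with limma voom (0.1516) and in 7 of the fits without 1 library (lowest adjusted p 0.05359). Rgs2 was lowest in the control clone, at 1.60 CPM against 5.78 in the knockout and 4.15 in the parental cells (log2 fold change of the control against the parental cells -1.37, SE 0.23, BH-adjusted p = 0.003563). Rapgef3, an effector of cyclic AMP, was lowest in the parental cells, at 1.77 CPM against 5.98 and 4.90.

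The enzymes that add or remove the lipids of alpha subunits were followed last. Zdhhc3, a Golgi palmitoyltransferase for G alpha subunits and the most abundant of the 9 turnover enzymes listed, was at 130.6 CPM in the knockout clone, 156.7 in the control clone and 173.3 in the parental cells. It was called lower against both (log2 fold changes -0.26, SE 0.08, BH-adjusted p = 0.0232, and -0.41, SE 0.08, BH-adjusted p = 0.004148), and the former was lost without the filter (0.08123), in a fit of only the groups compared (0.09236) and in 5 of the fits without 1 library (lowest adjusted p 0.05054). It too lies on chromosome 9. Of the 9, 1 was called higher and 4 lower (Zdhhc3, Zdhhc7, Abhd17c and Ppt1) against the control clone, beside 20% and 22.8% of the 11401 genes. Against the parental cells 1 was called higher and 2 lower, beside 14.1% and 16.3%. Without knockout replicate 1 the 4 became 1, Abhd17c, and Zdhhc7 was lost in 12 of 17 alternatives. Of the 4 enzymes of N-myristoylation, 0 were called by edgeR, DESeq2 or limma voom in any of the 3 comparisons, and 1 had an unadjusted p under 0.05 in edgeR, for control against parental. Without control replicate 2, 2 were called lower in that comparison and 1 higher in the knockout against the control clone; the latter count was also 1 without control replicate 3. Nmt1, which attaches the myristate, was at 152.1, 153.9 and 158.3 CPM in knockout, control and parental cells.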

How the data were processed

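The authors deposited 1 table of estimated counts per gene for 9 libraries, all of them whole numbers. The submitters' processing notes name RSEM 1.3.0, STAR 2.5.2, DESeq2 1.10.1 and GRCm38 without giving their order; the annotation release and strand setting are not given in the sources used here. RSEM divides shared reads between genes by an estimate. Per the labels' protocols, libraries were made with a KAPA mRNA HyperPrep kit.

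Groups came from the labels and columns were matched to samples by title. Symbols and positions are from GENCODE M21 (GRCm38), which matched 54809 of 54838 identifiers. Counts were filtered with filterByExpr (minimum count 10, total 15), TMM-scaled and fitted in edgeR 4.0.16 (glmQLFit and glmQLFTest, R 4.3.3) with all 9 libraries in 1 fit, with Benjamini-Hochberg adjustment over 13153 genes and calls at an adjusted p under 0.05. SE is the absolute unshrunken log2 fold change over the square root of F. The log2 fold changes printed from edgeR are its slightly shrunken ones, which differ from the unshrunken mainly at low counts. Where not every library of both groups reached the CPM that 10 counts make in the median library, no p-value is printed. Where a group had 0 counts, folds are bounds against 3 counts over the group; with 1 to 3 counts, ratios have exact 95% binomial intervals. Such bounds and intervals cover counting error alone, because PCR copies were not marked by molecular identifiers.

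The code was tested on simulated data. The members and lists were chosen with earlier results of these data known. Genes named are all members, Zdhhc20, the 5 tested genes on either side of Gnao1 (1 of these is not reported here), the 5 nearest in pattern, list genes that reach 5 CPM on average in a group and were called the same way against both others by 1 log2 unit or more, the most abundant gene of a list, and markers. Alternatives were DESeq2 size factors and test, total-count scaling, limma voom, other filters, a replicate block, fits of only the groups compared and leaving out each library.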

Additional observations from a re-analysis of the deposited data

How the results depend on the processing

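Members, partner genes and all genes were recounted under each alternative. The recounts over members and lists and those of the bounds were chosen after seeing the data. Requiring 1 log2 unit of change or more as well, 1843, 1392 and 851 genes were called in the knockout against the control clone, the knockout against the parental cells and the control clone against the parental cells, where the reported counts were 5643, 4131 and 2814. Fitting only the groups compared called 6840 genes for the knockout against the parental cells and 1525 for the last comparison. Leaving out 1 library gave 4301 to 7204, 2515 to 5693 and 1472 to 4102 genes in the same order. The lowest were 2515 without parental replicate 3 and 2626 without knockout replicate 1 for the second comparison, and 1472, 1537 and 1792 without parental replicates 1, 2 and 3 for the last.

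Over all members tested apart from Gnao1, and so with Gnai1 and Gnaz, whose calls are not used in the report, 2 were called in the knockout against the control clone. That count was 0 with a filter at a mean of 5 CPM, which removes Gnai1 and Gnaz, 1 in a fit of only those groups, and 2 to 4 without 1 library (4 without control replicate 2). Against the parental cells the count of 5 became 3 without the filter, 3 with the filter at 5 CPM, 6 in a fit of only those groups, and 1 to 5 without 1 library (1 without knockout replicate 3). In the last comparison the count of 2 became 1 without the filter, 1 in a fit of only those groups and 1 to 3 without 1 library. Of the 90 tested partner genes, and so with those kept only by the groups in which they are high, 46, 42 and 29 were called. The filter at 5 CPM gave 30 and 18 in the first and last comparison, a fit of only the groups compared gave 36, 57 and 16, and leaving out 1 library gave 36 to 58, 27 to 57 (27 without parental replicate 3) and 15 to 41 (16, 15 and 17 without parental replicates 1, 2 and 3). The cause of these changes was not tested.

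Some uncalled values near 0 changed sign. Gnai2 in the knockout against the control clone was 0.02285 with total counts as scaling, 0.00324 without the filter, 0.01261 in a fit of only those groups and -0.07588 to 0.04242 without 1 library. Gnai3 in that comparison was 0.009556 with total counts and -0.05486 to 0.04167 without 1 library. Without 1 library the knockout against the parental cells ran from -0.06268 to 0.007309 for Gnai3 and from -0.06544 to 0.01149 for Gna12. The control clone against the parental cells ran from -0.3356 to 0.3936 for Gnao1, -0.06896 to 0.02756 for Gnai3 and -0.1262 to 0.08098 for Gna13. The lower bound of the Gnao1 fold was 180.7 to 346.1 against the control clone and 163.5 to 279.4 against the parental cells without 1 library, and 9 to 12 genes then met the rule for silence in the knockout clone. With the longest transcript as length, 6 members kept their rank.

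The replicate number as a block called 5528, 3941 and 2492 genes. Deviations of samples with the same number correlated at -0.183 to 0.275 over 9 pairs, 3 of them over 0.1, and nothing in the labels says that a number marks a shared day, so the numbers were not taken as pairs. Depth limits Gnaz, and it limits Gnai1 and the partner genes given without a test in the groups where they are low, whose values rest on a few counts per library.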
